A study of Mus musculus with 6 samples.

Results

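AP-2 transcription factors are represented here by Tfap2a, Tfap2b, Tfap2c and Tfap2e, 4 of the 17025 genes in a table of RNA-seq values from sorted mouse epidermal cells. They were picked by name. The authors' annotation places 5 genes of the table in the AP-2 family. The fifth, Tfap2d, was listed at 0 in 5 libraries and at a single fragment in the other. The family was taken up with its values in these libraries known, so the levels of the 4 genes are a description and carry no test.

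AP-2 proteins bind GC-rich DNA as homodimers or heterodimers through a basic region and a helix-span-helix domain shared by the whole family, while an amino-terminal region activates transcription. AP-2α and AP-2γ, the products of Tfap2a and Tfap2c, are among the earliest markers of surface ectoderm, and mouse epidermis that lacks both differentiates poorly. AP-2α and AP-2β, the product of Tfap2b, also act in neural crest and in the melanocyte lineage. AP-2ε, the product of Tfap2e, is best known from the olfactory system of the mouse. AP-2δ, the product of Tfap2d, has been reported to bind ASH2L, the protein whose gene was targeted in this study.

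The cells were integrin α6-positive epidermal progenitors, collected by fluorescence-activated sorting at postnatal day 0. Integrin α6 is the hemidesmosome integrin of basal cells. The series held 3 libraries labelled cKO, of genotype K14Cre,Ash2lF/F (both Ash2l alleles floxed), and 3 labelled control, of genotype K14Cre,Ash2lF/+ (1 floxed allele), so Cre recombinase under the keratin 14 promoter was present in both groups and the controls were not free of a floxed allele. ASH2L is a core subunit of the complexes that methylate histone H3 on lysine 4, and the series asks about its role in the epidermis, in the shaping of hair follicles and in Notch activity. The labels do not say whether the libraries of a group come from different animals, so p-values measure only the spread between these libraries.

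The targeted gene went against the labels. Ash2l measured 30.9, 29.5 and 22.9 FPKM in the libraries labelled cKO 1, 2 and 3, against 12.4, 18.1 and 15.9 FPKM in those labelled control 1, 2 and 3 (log2 difference 0.81, SE 0.19, n = 3 per group; limma adjusted p = 0.0240). FPKM count fragments per kilobase of gene model on a scale set by the total of the library, and differences are on log2(FPKM + 1), cKO minus control. By a two-sided exact permutation test p was 0.1, below which 3 libraries against 3 cannot go. The call was lost without cKO 1 (adjusted p = 0.0829), cKO 2 (0.0810), control 1 (0.0560) or control 3 (0.0665). These values sum the whole gene and do not resolve the floxed exons. The authors' library names begin with A-W in the group labelled cKO and with A-C in the group labelled control, and the sources used here do not say what the letters stand for. Whether the groups were exchanged cannot be told from these values, and an exchange would turn the sign of every difference below. The groups are therefore called by their labels throughout.

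Depth was 33622416 to 36027550 fragments in the libraries labelled cKO, against 31578875 to 33053422 in those labelled control. Basal keratins were abundant in every library, with Krt14 between 1774 and 2582 FPKM in those labelled cKO and between 1683 and 3147 FPKM in those labelled control. Krt10, a keratin gene of spinous cells, was far above Krt14 in the libraries labelled cKO, at 18346 to 36869 FPKM. In those labelled control it was at 1693 to 2489 FPKM. Of 8 basal keratinocyte markers Krt15, a basal and hair follicle keratin gene, was called higher, at 2265 to 3681 FPKM in the libraries labelled cKO, against 422 to 754 FPKM in those labelled control (2.23, SE 0.26, limma adjusted p = 0.00215). Itgb4, the gene for the partner of integrin α6, was called lower (-1.70, SE 0.48, limma adjusted p = 0.0437), a call lost without any one library labelled control (adjusted p 0.0936 to 0.125) and after scaling by the median of ratios (0.0524). Immune markers summed to 1.27 to 3.32 FPKM in the libraries labelled cKO and 1.68 to 3.82 FPKM in those labelled control, and 5 of 6 averaged under 1 FPKM. The library labelled cKO 3 stood apart from cKO 1 and 2. Its spinous keratinocyte markers summed to 70144 FPKM, against 36357 and 36874 FPKM in cKO 1 and 2. In the libraries labelled control these markers summed to only 5010 to 6981 FPKM. Itga6, the gene for the sorting antigen, was at 19.7 FPKM in cKO 3, against 53.6 and 53.0 FPKM in cKO 1 and 2. In the libraries labelled control Itga6 was at 72.0 to 162 FPKM. FPKM are shares of a library, and the median gene lay at -0.17 on the log2 scale. Scaling by the median of ratios put that median at 0.03, and changes of the AP-2 genes are read against this shift.

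The RefSeq windows directly upstream of an annotated start are shown for the AP-2 genes whose levels stood furthest apart in each direction, Tfap2e and Tfap2b (build GRCm38.p6, 250 bases, gene strand, 5′ to 3′). Capitals mark a GTGGGAA motif on either strand, a core letter string of sites for RBPJ, the DNA-binding partner of Notch. The Tfap2e window is chr4:126736270-126736519, minus strand, and the Tfap2b window is chr1:19211804-19212053, plus strand.
Tfap2e: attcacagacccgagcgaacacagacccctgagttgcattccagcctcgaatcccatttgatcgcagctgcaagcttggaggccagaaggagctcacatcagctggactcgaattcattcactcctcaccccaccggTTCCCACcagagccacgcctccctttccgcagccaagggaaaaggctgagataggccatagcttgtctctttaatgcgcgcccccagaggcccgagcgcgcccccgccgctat
Tfap2b: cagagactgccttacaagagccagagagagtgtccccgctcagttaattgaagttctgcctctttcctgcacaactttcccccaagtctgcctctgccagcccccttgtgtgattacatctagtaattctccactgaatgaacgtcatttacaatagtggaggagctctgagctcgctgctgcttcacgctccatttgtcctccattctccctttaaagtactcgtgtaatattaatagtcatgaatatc

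Windows were found for 3 of the 4 genes, 1 each for Tfap2b and Tfap2e and 2 for Tfap2a. The Tfap2e window held 1 GTGGGAA match, on the reverse strand, starting 113 bases before the start site, and those of Tfap2a and Tfap2b held none. Of 32851 windows of the same length, 5.42% held a match on either strand. The palindromic AP-2 motif GCCNNNGGC was in none of the 4 windows, against 13.7% of all windows. Tfap2e had 15 CpG dinucleotides in its window, a ratio of observed to expected CpG of 0.723, and Tfap2b had 5, a ratio of 0.391. The 2 Tfap2a windows had 10 each, with ratios of 0.563 and 0.729, so a ratio like that of Tfap2e was not particular to it. The median over all windows was 0.373. These are descriptions of letters in a short window and say nothing of binding.

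Tfap2e was the AP-2 gene whose level differed most. It measured 17.5, 19.7 and 15.5 FPKM in the libraries labelled cKO 1, 2 and 3, against 1.38, 1.43 and 0.418 FPKM in those labelled control 1, 2 and 3. All libraries labelled cKO lay above all those labelled control, with no overlap. The means were 17.6 ± 2.10 FPKM in the libraries labelled cKO and 1.07 ± 0.569 FPKM in those labelled control (SD, n = 3 each), a 16.3-fold ratio of means. On the log2(FPKM + 1) scale the difference was 3.20 (SE 0.26), and it was 4.06 (SE 0.43) with a pseudocount of 0.1 FPKM, since a pseudocount of 1 is about as large as the control level. The values rested on 1244, 1419 and 1182 fragments in the libraries labelled cKO and on 92, 100 and 29 fragments in those labelled control. The lowest, control 3, had an exact Poisson 95% interval of 0.280 to 0.600 FPKM, against 1.11 to 1.69 FPKM for control 1 and 1.16 to 1.74 FPKM for control 2. Such intervals cover counting error only. Leaving out each library in turn moved the log2 difference between 2.94 and 3.33.

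Tfap2b went the other way. Its values were 25.0, 26.4 and 13.1 FPKM in the libraries labelled cKO 1, 2 and 3, against 36.8, 60.0 and 50.4 FPKM in those labelled control 1, 2 and 3. The groups did not overlap, and cKO 3 and control 1 were the lowest of their groups. The means were 21.5 ± 7.29 FPKM in the libraries labelled cKO and 49.1 ± 11.6 FPKM in those labelled control (SD, n = 3 each), and the log2 difference was -1.18 (SE 0.29). Without cKO 3 it was -0.88, and without control 1 it was -1.37. Scaling by the median of ratios gave -0.97 (SE 0.25), again with no overlap of the groups. Fewer cells of a type and less RNA per cell cannot be told apart in such bulk libraries, for this and every other gene here.

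Tfap2a, the most even of the AP-2 genes, had 53.6, 52.1 and 52.9 FPKM in the libraries labelled cKO 1, 2 and 3, against 60.0, 76.7 and 69.9 FPKM in those labelled control 1, 2 and 3. The groups did not overlap on this scale. The means were 52.9 ± 0.763 FPKM in the libraries labelled cKO and 68.9 ± 8.35 FPKM in those labelled control (SD, n = 3 each), a log2 difference of -0.37 (SE 0.13) beside the median of -0.17 of all genes. After scaling by the median of ratios the values were 54.0, 53.0 and 63.6 in the libraries labelled cKO and 55.6, 71.1 and 62.6 in those labelled control. Those groups overlapped, and the log2 difference was -0.15 (SE 0.14). The gene Gm26688 overlaps Tfap2a in the GRCm38 annotation, and whether the authors' counts used strand is not given in the sources used here.

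Tfap2c varied as much within the groups as between them. Its values were 82.3, 79.7 and 41.9 FPKM in the libraries labelled cKO 1, 2 and 3, against 40.1, 55.0 and 73.4 FPKM in those labelled control 1, 2 and 3. The groups overlapped, with cKO 3 beside control 1 at the low end. The means were 68.0 ± 22.6 FPKM in the libraries labelled cKO and 56.2 ± 16.7 FPKM in those labelled control (SD, n = 3 each). The log2 difference of 0.25 (SE 0.31) became 0.03 without control 1 and 0.56 without cKO 3. Scaling by the median of ratios gave 0.47 (SE 0.26), again with overlapping groups.

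**Figure D1:**
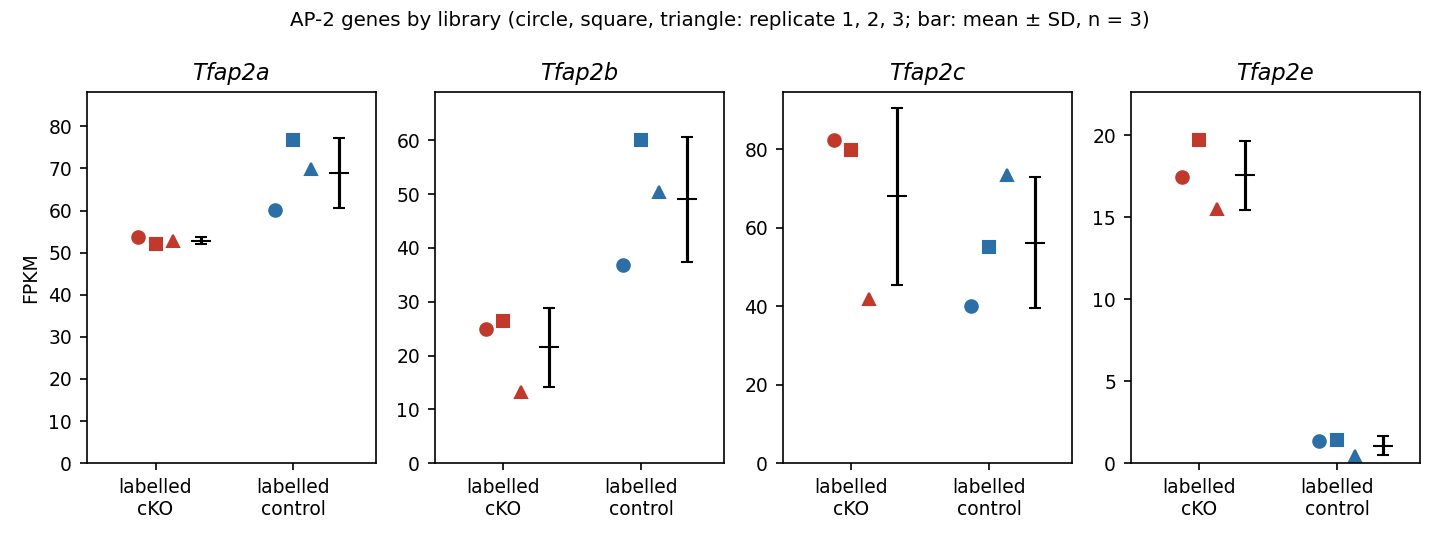
FPKM (linear axis from 0) of the 4 AP-2 genes in each library, with the libraries labelled cKO left of those labelled control and the mean ± SD of each group (n = 3) as a black bar. Tfap2e is at 15.5 to 19.7 FPKM in the libraries labelled cKO and at 0.418 to 1.43 FPKM in those labelled control, Tfap2a and Tfap2b lie lower in the libraries labelled cKO, and the groups overlap for Tfap2c.

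The groups were without overlap for 3 of the 4 genes, with Tfap2e higher and Tfap2a and Tfap2b lower in the libraries labelled cKO. All 4 averaged 1 FPKM or more, as did 11603 genes, of which 42.9% had groups without overlap (12% higher, 30.9% lower) and 19.5% passed the limma test at an adjusted p under 0.05. Nothing is read from the count of members, since the contrast was known when they were chosen.

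FPKM are per length, so genes can be set side by side. By mean level the order in the libraries labelled cKO was Tfap2c (68.0 FPKM), Tfap2a (52.9), Tfap2b (21.5) and Tfap2e (17.6). In those labelled control it was Tfap2a (68.9 FPKM), Tfap2c (56.2), Tfap2b (49.1) and Tfap2e (1.07). Tfap2c and Tfap2a did not separate beyond their spread in either group: Tfap2c was above Tfap2a in cKO 1 and 2 and in control 3, and below it in cKO 3, control 1 and control 2. Tfap2b and Tfap2e did not separate in the libraries labelled cKO, where Tfap2e was above Tfap2b in cKO 3 (15.5 and 13.1 FPKM), and they lay far apart in every library labelled control. The order within a library did not split the groups, since control 3 had the same order as cKO 1 and 2, and Tfap2b was above Tfap2c in control 2 (60.0 and 55.0 FPKM).

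Summed over the 4 genes, AP-2 transcripts reached 178, 178 and 123 FPKM in the libraries labelled cKO 1, 2 and 3, and 138, 193 and 194 FPKM in those labelled control 1, 2 and 3. The sums overlapped (159.9 ± 31.6 FPKM in the libraries labelled cKO and 175.2 ± 31.9 FPKM in those labelled control; SD, n = 3 each), while the shares of Tfap2e and Tfap2b did not. Tfap2e made up 9.80, 11.1 and 12.6% of the sum in the libraries labelled cKO, and 0.995, 0.740 and 0.215% in those labelled control. Tfap2b made up 14.0, 14.9 and 10.6% in the libraries labelled cKO, and 26.6, 31.1 and 26.0% in those labelled control. Tfap2a, at 29.3 to 42.8% in the libraries labelled cKO, against 36.0 to 43.4% in those labelled control, and Tfap2c, at 34.0 to 46.1% in the libraries labelled cKO, against 28.5 to 37.8% in those labelled control, overlapped. The ratio of Tfap2c to Tfap2b was 3.29, 3.02 and 3.19 in the libraries labelled cKO, against 1.09, 0.917 and 1.46 in those labelled control. It was even within the libraries labelled cKO although both genes were lowest in cKO 3.

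**Figure D2:**
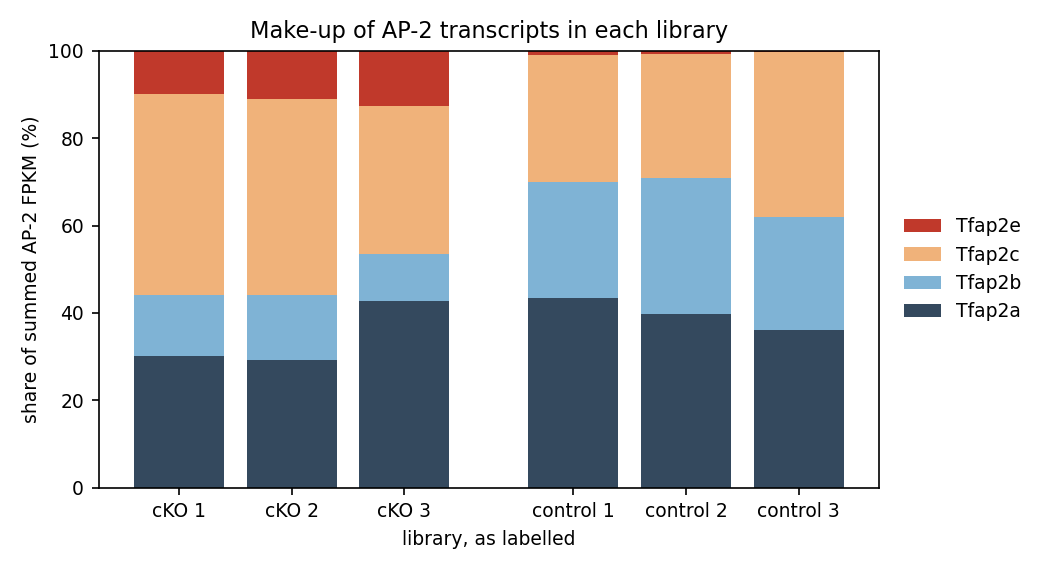
Share of the summed FPKM of the 4 AP-2 genes taken by each gene, in percent, per library, with the libraries labelled cKO on the left and those labelled control on the right. The Tfap2e share is 9.80 to 12.6% in the libraries labelled cKO, against 0.215 to 0.995% in those labelled control, while the Tfap2b share is 10.6 to 14.9% in the libraries labelled cKO, against 26.0 to 31.1% in those labelled control.

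Set among the 1177 genes that the authors place in a transcription factor family, 3 of the AP-2 genes were abundant. By mean FPKM Tfap2c ranked 21 in the libraries labelled cKO and 37 in those labelled control, Tfap2a ranked 40 in the libraries labelled cKO and 25 in those labelled control, and Tfap2b ranked 135 in the libraries labelled cKO and 50 in those labelled control. Tfap2e ranked 168 in the libraries labelled cKO and 804 in those labelled control. Its rank was 154 to 178 across the libraries labelled cKO, against 731 to 924 across those labelled control.

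Markers of other cell types moved with some AP-2 genes. Beside the marker counts below, 5.87% of all genes tested were called higher and 13.6% lower. Melanocyte markers, 10 of 10 of which were called lower, summed to 375, 359 and 175 FPKM in the libraries labelled cKO 1, 2 and 3, and to 2945, 3294 and 2875 FPKM in those labelled control 1, 2 and 3. Tfap2b was likewise lower in every library labelled cKO and lowest in cKO 3. Elsewhere the orders differed: cKO 1 had more of the markers and less Tfap2b than cKO 2, and control 1 had more of the markers and less Tfap2b than control 3. None of these markers was at 0 in any library, and Dct, a pigment enzyme gene, was still at 105 to 219 FPKM in the libraries labelled cKO. Of the Schwann cell markers tested, 2 of 5 were called lower and none higher. The part of these cells in the Tfap2b and Tfap2a levels was not tested.

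Fibroblast and dermal condensate markers followed Tfap2c library by library as a sum, though not each on its own. The 10 markers summed to 519, 486 and 178 FPKM in the libraries labelled cKO 1, 2 and 3, and to 98.5, 183 and 376 FPKM in those labelled control 1, 2 and 3. The 6 libraries fell in the same order by this sum as by Tfap2c, from control 1, the lowest, through cKO 3, control 2, control 3 and cKO 2 to cKO 1. Single markers differed from that order. Dcn was at 48.7, 21.6 and 33.9 FPKM in control 1, 2 and 3, and Pdgfra was highest in control 3 (24.6 FPKM). Of the 10 markers 1 was called higher and none lower, and Twist2 and Crabp1 were listed at 0 in control 1. Their part in the Tfap2c level was not tested.

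Spinous keratinocyte markers, 6 of 8 called higher and none lower, were mostly high in the libraries in which Tfap2e was high. They summed to 36357, 36874 and 70144 FPKM in the libraries labelled cKO 1, 2 and 3, and to 5010, 6981 and 6399 FPKM in those labelled control 1, 2 and 3. Krt1 and Krt10 made up most of each sum. Sbsn was lower in every library labelled cKO (-0.43, limma adjusted p = 0.0847), and Dsc1 was at 0.01 (limma adjusted p = 0.988). Within the groups the order differed: cKO 3 had the largest spinous sum and the lowest Tfap2e of its group. Hair placode and follicle markers had 4 of 8 called higher and none lower, with sums of 210 to 254 FPKM in the libraries labelled cKO and 71.6 to 131 FPKM in those labelled control. Sostdc1 alone was at 184 FPKM in cKO 3, which had the largest of these sums. Sox9 was lower in every library labelled cKO (-0.50, limma adjusted p = 0.0861), and Lef1 was at -0.45 (limma adjusted p = 0.528). Granular keratinocyte markers, among them Scel, had 3 of 7 tested called higher and none lower, with sums of 133 to 199 FPKM in the libraries labelled cKO and 46.0 to 90.1 FPKM in those labelled control. Whether the Tfap2e transcripts come from these cells was not tested.

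**Figure D3:**
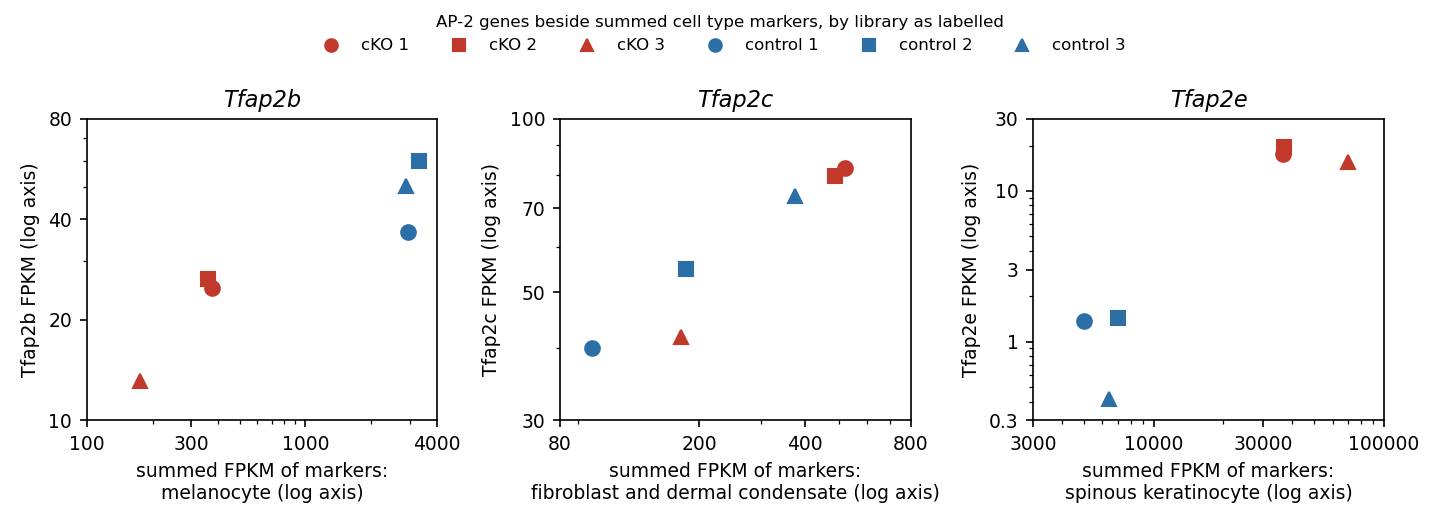
Level of Tfap2b, Tfap2c and Tfap2e in FPKM against the summed FPKM of melanocyte, of fibroblast and dermal condensate, and of spinous keratinocyte markers, with 1 point per library and log axes throughout. Tfap2c and its marker sum put the 6 libraries in the same order, with cKO 1 highest (82.3 and 519 FPKM) and control 1 lowest (40.1 and 98.5 FPKM). The other 2 panels show a set of libraries labelled cKO apart from a set labelled control.

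Genes of similar pattern were sought among 8230 genes averaging 5 FPKM or more, by Pearson's r of log2(FPKM + 1) over the 6 libraries, as a description. The 5 nearest to Tfap2c were Fbn1, Nid1, Col5a2, Cd248 and Fbln2 (r 0.995 to 0.999). Fbn1, Nid1, Col5a2 and Fbln2 encode extracellular matrix proteins, and Cd248 encodes endosialin of stromal cells. Nid1 had 136, 131 and 36.0 FPKM in the libraries labelled cKO 1, 2 and 3, against 30.5, 58.4 and 115 FPKM in those labelled control 1, 2 and 3. With the group means removed, r for these 5 genes remained 0.995 to 0.999.

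The 5 nearest to Tfap2e were Cblc, Sptssa, Scel, Plekhg6 and Pecr (r 0.994 to 0.997, and 0.822 to 0.903 with the group means removed). Scel encodes sciellin, a precursor of the cornified envelope, and measured 37.3, 37.8 and 34.3 FPKM in the libraries labelled cKO 1, 2 and 3, against 16.3, 18.5 and 14.9 FPKM in those labelled control 1, 2 and 3. Sptssa encodes a small subunit of serine palmitoyltransferase, the first enzyme of sphingolipid synthesis. For Tfap2b the nearest were Mxra7, Zrsr2, Twf1, Maz and Sbno1 (r 0.997 to 0.999, and 0.990 to 0.996 with the group means removed). For Tfap2a they were Ccnd3, Ndufb7, Hspb8, Klhdc3 and Myl6 (r 0.991 to 0.993, and 0.964 to 0.989 with the group means removed). Such high values are common with 6 libraries in 2 groups: r was over 0.9 for 1345 genes with Tfap2b, 372 with Tfap2e, 359 with Tfap2a and 250 with Tfap2c. Between the AP-2 genes r was 0.881 for Tfap2a with Tfap2b, -0.873 for Tfap2a with Tfap2e, -0.821 for Tfap2b with Tfap2e and 0.183 for Tfap2b with Tfap2c. With the group means removed it was 0.536 for Tfap2a with Tfap2b, -0.119 for Tfap2a with Tfap2e, 0.197 for Tfap2b with Tfap2e and 0.873 for Tfap2b with Tfap2c, the last pair being lowest in cKO 3 and in control 1.

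Proteins that bind AP-2 factors went in both directions. Of 16 listed genes 14 were tested, and in the libraries labelled cKO 2 were called higher and 2 lower, where 5.87% of all genes tested were called higher (681 genes) and 13.6% lower (1576 genes; limma, Benjamini-Hochberg adjusted p under 0.05). After scaling by the median of ratios those counts were 1044 and 1001. The median of the list was -0.16, beside -0.17 over all genes tested, and 0.06, beside 0.03, after that scaling. The CITED proteins are co-activators that link AP-2 to the acetyltransferases EP300 and CREBBP. Cited2 fell to 9.82, 9.09 and 5.40 FPKM in the libraries labelled cKO 1, 2 and 3, against 22.2, 20.4 and 19.1 FPKM in those labelled control 1, 2 and 3 (-1.28, SE 0.22, limma adjusted p = 0.00866). Cited4 rose to 3.81, 4.79 and 3.99 FPKM in the libraries labelled cKO, against 0, 2.19 and 0.194 FPKM in those labelled control (1.73, SE 0.42, limma adjusted p = 0.0281). Both were without overlap, in opposite directions. The Cited4 call was lost without any one of cKO 1, 2 or 3, control 1 or control 3 (adjusted p 0.0541 to 0.0917).

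Kctd15, which encodes an inhibitor of AP-2α known from zebrafish and human cells, rose to 26.6, 30.6 and 30.6 FPKM in the libraries labelled cKO 1, 2 and 3, against 16.6, 13.5 and 17.6 FPKM in those labelled control (0.85, SE 0.16, limma adjusted p = 0.0102). Kctd1, its relative with the same known role, was at -0.23 (SE 0.21, adjusted p = 0.454). Myc, whose protein AP-2α binds, fell to 37.6 to 43.9 FPKM in the libraries labelled cKO, against 73.6 to 88.9 FPKM in those labelled control (-0.93, SE 0.13, limma adjusted p = 0.00426). Cited2, Kctd15 and Myc kept their calls without any one library (adjusted p up to 0.0434). Kdm5b, a demethylase of lysine 4 of histone H3 that partners AP-2γ in human breast cancer cells, was at 0.59 (SE 0.17, adjusted p = 0.05003, just above the threshold). Dek (-0.62, SE 0.30), Yy1 (-0.22, SE 0.13) and Crebbp (-0.40, SE 0.25) did not pass the test, and Cited1 and Wwox were under the filter.

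Genes that promoter studies, many in human cells, place under AP-2 control also went both ways. Of 23 listed genes 22 were tested, with 3 called higher and 3 lower, where 5.87% of all genes tested were called higher and 13.6% lower. The median was -0.08, beside -0.17 over all genes tested (0.14, beside 0.03, after scaling by the median of ratios). Krt10, a keratin of spinous cells, rose to 18346, 19446 and 36869 FPKM in the libraries labelled cKO 1, 2 and 3, against 1693, 2489 and 2292 FPKM in those labelled control (3.47, SE 0.28, limma adjusted p = 0.000794). Cebpa, a transcription factor gene of differentiating keratinocytes, rose to 139.7 to 149 FPKM in the libraries labelled cKO, against 76.7 to 113 FPKM in those labelled control (0.60, SE 0.16, adjusted p = 0.0344). Erbb2, a receptor tyrosine kinase gene, was at 0.53 (SE 0.16, adjusted p = 0.0492), and lost its call without any one library (adjusted p 0.0575 to 0.148). The Cebpa call was lost without any one library other than control 3 (adjusted p 0.0523 to 0.0973).

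Lower among these genes were Mcam, Kit and Mt2. Mcam, an adhesion molecule gene that AP-2α represses in human melanoma cells, fell to 24.0, 24.1 and 6.38 FPKM in the libraries labelled cKO 1, 2 and 3, against 142, 160 and 131 FPKM in those labelled control (-3.12, SE 0.44, limma adjusted p = 0.00399). Kit, the receptor of the melanocyte growth factor SCF that AP-2α activates in the same cells, fell to 29.4, 29.7 and 8.41 FPKM in the libraries labelled cKO, against 164, 148 and 134 FPKM in those labelled control (-2.85, SE 0.42, limma adjusted p = 0.00486). Both fell together with the melanocyte markers given above, whose part was not tested. Mt2, a metallothionein gene, fell to 63.9 to 165 FPKM in the libraries labelled cKO, against 331 to 621 FPKM in those labelled control (-1.87, SE 0.38, adjusted p = 0.0142). Krt10, Kit, Mcam and Mt2 kept their calls without any one library (adjusted p up to 0.0489). The keratin genes Krt5 (0.51, SE 0.24) and Krt14 (-0.08, SE 0.24), Egfr (-0.21, SE 0.14), Cdh1, the E-cadherin gene (-0.09, SE 0.12), and Cdkn1a (-0.24, SE 0.16) did not pass the test. Gpx1 (0.45, adjusted p = 0.0507), Bcl2 (-0.82, adjusted p = 0.0540), Hoxa2 (1.36, adjusted p = 0.0550) and Erbb3 (-0.47, adjusted p = 0.0580) lay just above the threshold. Hoxc8, a gene that AP-2δ and ASH2L have been reported to activate together, was at 1.16 (SE 0.62, adjusted p = 0.227).

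Transcription factor genes that act beside AP-2 in epidermis had 5 of 13 called higher and 1 lower, where 5.87% of all genes tested were called higher and 13.6% lower. Of the 835 transcription factor genes tested 53 were called higher and 88 lower. The median was 0.42, beside -0.08 over those 835 genes and -0.17 over all genes tested (0.63 for the list, beside 0.03 for all genes, after scaling by the median of ratios). Grhl2, of the grainyhead-like family of epithelial barrier regulators, rose to 14.0, 12.6 and 15.8 FPKM in the libraries labelled cKO 1, 2 and 3, against 7.89, 3.76 and 4.55 FPKM in those labelled control (1.29, SE 0.25, limma adjusted p = 0.0131). Zfp750, a driver of terminal differentiation, rose by 0.89 (SE 0.16, adjusted p = 0.00957), Gata3 by 0.79 (SE 0.14, adjusted p = 0.00931) and Klf5 by 0.81 (SE 0.19, adjusted p = 0.0229). Cebpa, which stands in this list too, was the fifth. Klf4, a barrier factor gene, fell to 60.8 to 78.5 FPKM in the libraries labelled cKO, against 97.3 to 140 FPKM in those labelled control (-0.65, SE 0.18, adjusted p = 0.0378). Grhl1 (0.31, SE 0.18), Trp63, which encodes p63 (0.40, SE 0.23), Dlx3 (0.91, SE 0.37) and Cebpb (-0.26, SE 0.13) did not pass the test. The 5 higher became 2 without control 2 and 3 without control 3, where Grhl2 and Klf5 were not called (adjusted p 0.0505 to 0.0867). Klf4 lost its call without any one library (adjusted p 0.0589 to 0.0828) and after scaling by the median of ratios.

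**Figure D4:**
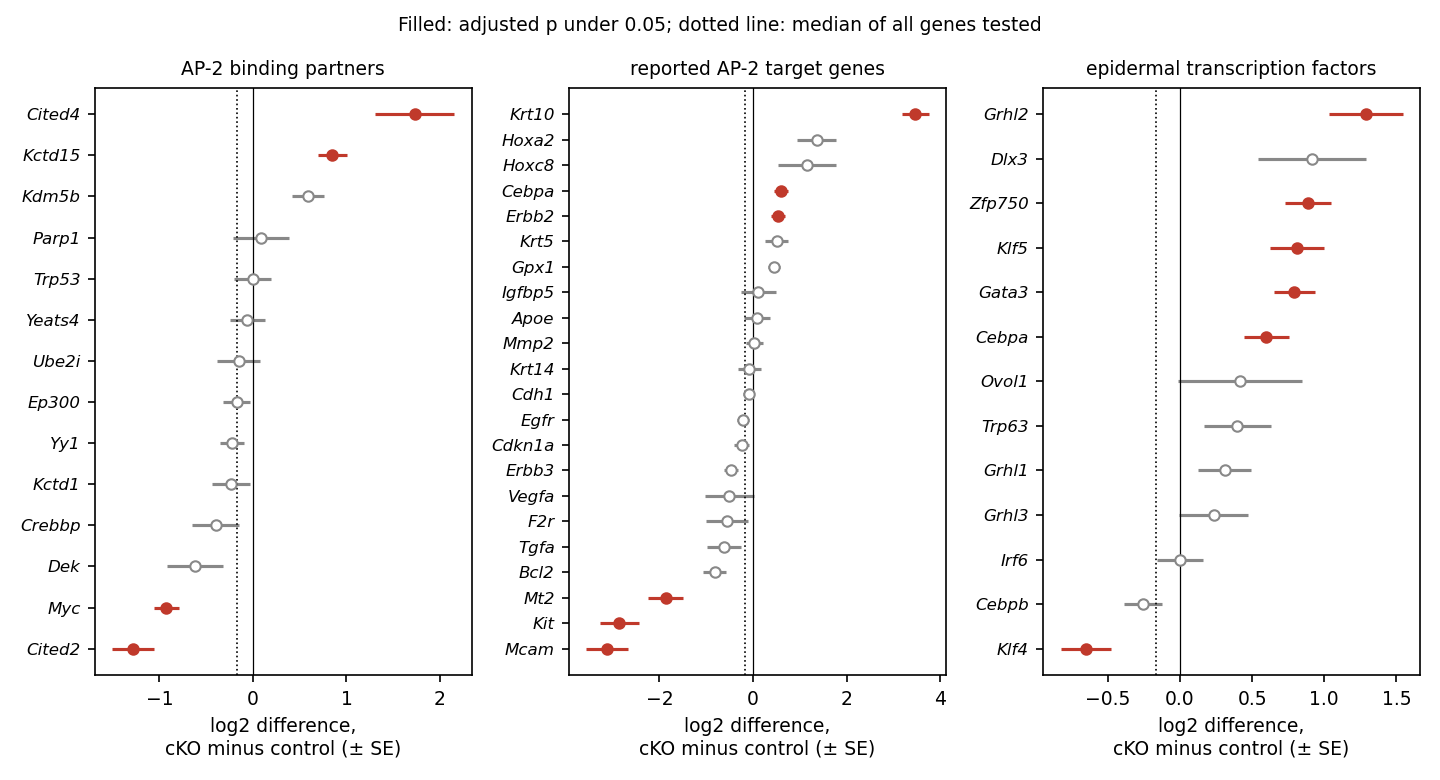
Log2 difference, cKO minus control, with its SE (n = 3 libraries per group) for each tested gene of 3 lists: AP-2 binding partners, reported AP-2 target genes and epidermal transcription factors. Filled red points passed the test (adjusted p under 0.05), and the dotted line marks the median of all genes tested (-0.17). The first 2 lists have calls on both sides, and the third has 5 higher and 1 lower.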

How the data were processed

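RNA-seq values of 6 libraries were used. Fragments per kilobase of gene model, scaled to library totals (FPKM), were deposited by the authors for 17025 genes. Per the submitters' processing notes, fastp, HISAT2, HTSeq and the build GRCm39 were used. The annotation release, the gene filter and whether strand was used were not given in the sources used here. Groups and replicate numbers came from the titles. Gene lengths and library totals that turn FPKM into whole fragments, within a relative tolerance of 1e-09, were found for all 17025 genes. The 11603 genes averaging 1 FPKM or more were fitted by limma 3.58.1 (R 4.3.3), as log2(FPKM + 1), with group as the sole factor and a trended prior variance. The Benjamini-Hochberg adjustment ran over all of them, and genes under 0.05 were called. The fit was tested on simulated data. Libraries sharing a replicate number were no more alike than other pairs between the groups (correlations of deviations -0.307, 0.0798 and -0.261, against -0.199 to 0.292). With 3 libraries per group these values cannot tell whether the libraries were paired. Promoter windows came from RefSeq, GRCm38.p6, another build. They and the neighbouring genes were matched by symbol.

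The genes, lists and tests were chosen with earlier results of these data known. Named genes were the 4 AP-2 genes, Ash2l, every called list gene and up to 4 more per list by adjusted p. Also named were the 2 nearest genes on each side that had values, and the 5 genes most alike in pattern. Some other list and marker genes were named after their values were seen. These were Krt14, Krt5, Egfr, Cdh1, Cdkn1a, Hoxc8, Kctd1, Itga6, Itgb4, Krt15, Dct, Twist2 and Crabp1. Krt1, Sbsn, Dsc1, Sostdc1, Sox9, Lef1, Dcn and Pdgfra were named in the same way. Alternatives were another pseudocount, other filters, scaling by the median of ratios, no trend, a replicate block, each library left out, and limma-voom on whole fragments, which called 618 genes higher and 1528 lower. Figures were drawn with matplotlib 3.10.9.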

Additional observations from a re-analysis of the deposited data

How the results depend on the processing

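The direction of each AP-2 gene was the same under every alternative run. Tfap2a was at -0.15 after scaling by the median of ratios, and Tfap2e at 4.06 with a pseudocount of 0.1 FPKM and 4.21 with limma-voom on whole fragments. Without one library each, the differences ran over -0.46 to -0.29 for Tfap2a, -1.37 to -0.88 for Tfap2b, 0.03 to 0.56 for Tfap2c and 2.94 to 3.33 for Tfap2e, and the differences in share over -10.0 to -3.26, -15.7 to -13.1, 7.63 to 13.7 and 9.78 to 11.2 percentage points. Shares of fragments not divided by length gave 1.79 points for Tfap2a, reversed from -5.66, -17.6 for Tfap2b and 4.45 for Tfap2e, since long genes then count for more. With a replicate block Ash2l kept its difference of 0.81 and lost its call (limma adjusted p = 0.0613). Pak1ip1 also lost its call (limma adjusted p = 0.0570). The labels do not say whether libraries of the same number belong together. Under this block 432 genes were called higher and 893 lower, target genes had 1 higher and transcription factors 3. Without one library Ash2l ran over 0.67 to 0.94, and 390 to 715 genes were called higher and 712 to 1448 lower, beside 681 and 1576 with all libraries. Scaling by the median of ratios called 1044 higher and 1001 lower, 5 target genes higher and 0 transcription factors lower. Binding partners had 1 higher with the pseudocount of 0.1 FPKM or no filter, target genes had 1 higher with no filter or no trend, and transcription factors had 0 lower under both of these. Without one library, binding partners had 1 to 2 higher, target genes 1 to 4 higher, and transcription factors 2 to 4 higher and 0 lower. Of 759 alternatives for 59 single genes, 47 lost a call, 10 gained one and 0 reversed. The causes were not tested where none is given. Depth limits Tfap2e in the libraries labelled control, at 29 to 100 fragments.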

Other observations

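The genes nearest to each AP-2 gene in the GRCm38 annotation, among those with values here, were read for their levels. Around Tfap2e, Psmb2 (0.06, SE 0.13), Ncdn (-0.27, SE 0.17), 5730409E04Rik (0.50, SE 0.24) and AU040320 (-0.28, SE 0.27) did not pass the test, with limma adjusted p of 0.190 to 0.765. Psmb2, a proteasome subunit gene, measured 76.6, 61.1 and 67.3 FPKM in the libraries labelled cKO 1, 2 and 3, against 62.7, 68.2 and 64.6 FPKM in those labelled control. Around Tfap2a, Pak1ip1 fell to 27.9, 28.6 and 24.0 FPKM in the libraries labelled cKO, against 38.3, 49.4 and 41.2 FPKM in those labelled control (-0.65, SE 0.15, limma adjusted p = 0.0225; 0.0554 to 0.0802 without cKO 1, cKO 2, control 2 or control 3). The Pak1ip1 call was also lost after scaling by the median of ratios (-0.44, limma adjusted p = 0.0724). Ofcc1, the nearest on the other side and below the filter, had 0.165, 0.102 and 0.221 FPKM in the libraries labelled cKO, against 1.10, 1.26 and 1.06 FPKM in those labelled control. Slc35b3 (adjusted p = 0.242) and Gcnt2 (adjusted p = 0.241) did not pass.

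Bmp7, beside Tfap2c and the gene of a secreted growth factor, had 85.7, 78.3 and 42.2 FPKM in the libraries labelled cKO 1, 2 and 3, against 63.8, 47.0 and 58.4 FPKM in those labelled control (0.23, SE 0.27, limma adjusted p = 0.584). Spo11 (0.05), Rtf2 (-0.06) and Fam209 (-0.52), also beside Tfap2c, did not pass the test (adjusted p 0.5003 to 0.932). Tfap2d, Crispld1, Pkhd1 and Il17f, beside Tfap2b, were under the filter.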
